A study of Homo sapiens with 5 samples.

Results

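ZBTB7A binding was examined at 7 genes that act in G2 and mitosis: CCNB1, CDK1, AURKA, PLK1, FOXM1, TOP2A and CENPF. ZBTB7A (LRF, Pokemon) is a DNA-binding protein with a BTB domain and zinc fingers known mainly as a repressor, and its sites were read out by ChIP-seq, the sequencing of DNA recovered with an antibody to it. A peak, a place where sequenced fragments pile up above background, was assigned to a gene when its summit lay within 25 kb of the gene's span on the hg19 build. This gave 63 of the 196770 peaks in the 3 deposited peak lists. The spans of the 7 genes were given to the nearest 1 kb, and their lengths of 11 to 62 kb lay close to the RefSeq gene lengths on GRCh38, from 11.1 kb for CCNB1 to 61.4 kb for CENPF. The genes were picked by name and function and not by a rule on their peaks, although earlier results of these data were known.

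All libraries came from VCaP, an established prostate cancer cell line that expresses the androgen receptor, with no genetic change named in the labels. In the CSS group (2 libraries) cells were held for 4 hours with vehicle in medium with 5% hormone-depleted serum. In the DHT group (2 libraries) they received 10 nM of the androgen DHT for the same time in the same medium. The FBS group (1 library) was read as cells in 10% full serum without added DHT, from the series design, although its labels repeat the treatment text of the others. Each condition is 1 peak list (37782 peaks in CSS, 34120 in DHT and 124868 in FBS), so replicates could not be compared and no test between conditions was made. Read numbers are not in the lists, which leaves library depth unknown, and a missing peak means only that none was called. Expression was not measured in these files, so the cell type and the activity of the 7 genes could not be checked.

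The 7 genes form a well-known group. Cyclin B1 (CCNB1) binds the kinase CDK1, and the pair drives entry into mitosis. The kinases Aurora A (AURKA) and Polo-like kinase 1 (PLK1) act on centrosomes, the spindle and the activation of CDK1. FOXM1 is a transcription factor that switches on many G2 and mitosis genes. Topoisomerase IIα (TOP2A) untangles chromosomes, and CENPF is a large protein of the kinetochore and nuclear matrix. Promoters of such genes often carry CCAAT boxes, bound by NF-Y, and a cell cycle genes homology region (CHR), bound by the DREAM and MMB-FOXM1 complexes.

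RefSeq promoter sequences on GRCh38.p14 were matched for 5 of the 7 genes: CCNB1, CDK1, PLK1, TOP2A and CENPF. AURKA and FOXM1 are named only. Each of the 7 genes had a peak called at the 5′ end in at least 1 list. The 250 bases before the transcript start are shown for 4 of them. They are chr5:69166900-69167149 on the forward strand for CCNB1, chr16:23678639-23678888 on the forward strand for PLK1, chr17:40417897-40418146 on the reverse strand for TOP2A and chr1:214602945-214603194 on the forward strand for CENPF. CDK1 has 2 starts in the table, 147 bases apart, and for it only a stretch of 30 bases next to the second start is shown, chr10:60778453-60778482 on the forward strand. All are written 5′ to 3′ on the strand of the gene, and capitals mark CCAAT or its complement ATTGG, and the CHR word TTTGAA or its complement TTCAAA.
CCNB1: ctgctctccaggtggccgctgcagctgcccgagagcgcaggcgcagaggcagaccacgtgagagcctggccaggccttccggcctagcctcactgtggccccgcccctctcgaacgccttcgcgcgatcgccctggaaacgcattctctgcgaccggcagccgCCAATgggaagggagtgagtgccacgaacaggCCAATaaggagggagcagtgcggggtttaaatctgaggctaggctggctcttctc
PLK1: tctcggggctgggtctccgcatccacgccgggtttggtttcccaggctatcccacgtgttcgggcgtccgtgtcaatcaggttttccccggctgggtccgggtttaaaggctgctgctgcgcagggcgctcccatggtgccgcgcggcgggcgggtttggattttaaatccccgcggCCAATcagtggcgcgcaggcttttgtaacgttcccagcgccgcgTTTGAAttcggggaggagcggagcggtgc
TOP2A: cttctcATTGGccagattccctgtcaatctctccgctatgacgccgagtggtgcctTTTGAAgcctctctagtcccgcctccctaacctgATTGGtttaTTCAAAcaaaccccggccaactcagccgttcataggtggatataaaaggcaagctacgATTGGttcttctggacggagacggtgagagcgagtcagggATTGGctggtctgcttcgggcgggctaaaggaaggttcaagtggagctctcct
CENPF: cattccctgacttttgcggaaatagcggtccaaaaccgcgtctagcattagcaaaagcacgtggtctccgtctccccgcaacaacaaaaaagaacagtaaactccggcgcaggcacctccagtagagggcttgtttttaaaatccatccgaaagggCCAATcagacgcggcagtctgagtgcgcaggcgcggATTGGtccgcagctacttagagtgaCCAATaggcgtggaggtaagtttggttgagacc
CDK1: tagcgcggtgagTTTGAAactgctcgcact

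The NF-Y word CCAAT was found in each of the 6 promoter windows of these 5 genes, and the CHR word TTTGAA in 5 of the 6. Each window runs from 250 bases before to 50 bases after a start, both strands were searched for exact letters, and the 2 CDK1 windows overlap. Over all 35116 promoter windows of the table, 34.6% held CCAAT, 15.2% held TTTGAA, and 6.38% held CCAAT together with TTTGAA or TTCGAA, against 5 of the 6 windows of the members. TTCGAA, a variant CHR word, was in 0 of the 6 and in 1.45% of all windows. Positions are those of the first base of a match, counted along the gene from the start base, so that -1 is the last base printed above for CCNB1, PLK1, TOP2A and CENPF. CCNB1 had CCAAT at -87 and -55 from its start and no match to either CHR word. PLK1 had CCAAT at -73 and TTTGAA at -29. TOP2A had the most CCAAT words before the start, at -244, -160, -93 and -53, with TTTGAA at -194 and -151. CENPF had CCAAT at -94, -58 and -33 and again at 12 bases past the start, with TTTGAA at 40 bases past it. CDK1's second start had CCAAT at -78 and -46 and TTTGAA at -69, -13 and 9.

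GC-rich words were mixed. The GC box GGGCGG was in 5 of the 6 windows (44.95% of all windows), with CENPF as the exception. Of 2 words resembling sequences ZBTB7A is known to bind, CCCTTCCCC was in 0 of the 6 (2.73% of all windows) and GACCC was in the PLK1 window only, at -240 and -157 (47.6% of all windows). No word overlapped another of a different kind in these windows. For 22 further G2 and mitosis genes, 18 were matched, with 23 windows. Of these, 18 held CCAAT, 14 TTTGAA, 19 GGGCGG, 10 GACCC and 0 CCCTTCCCC. A match is a description of the letters and not a shown binding site. Peaks at these further genes were not analysed here, since no hg19 annotation was used.

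**Figure D1:**
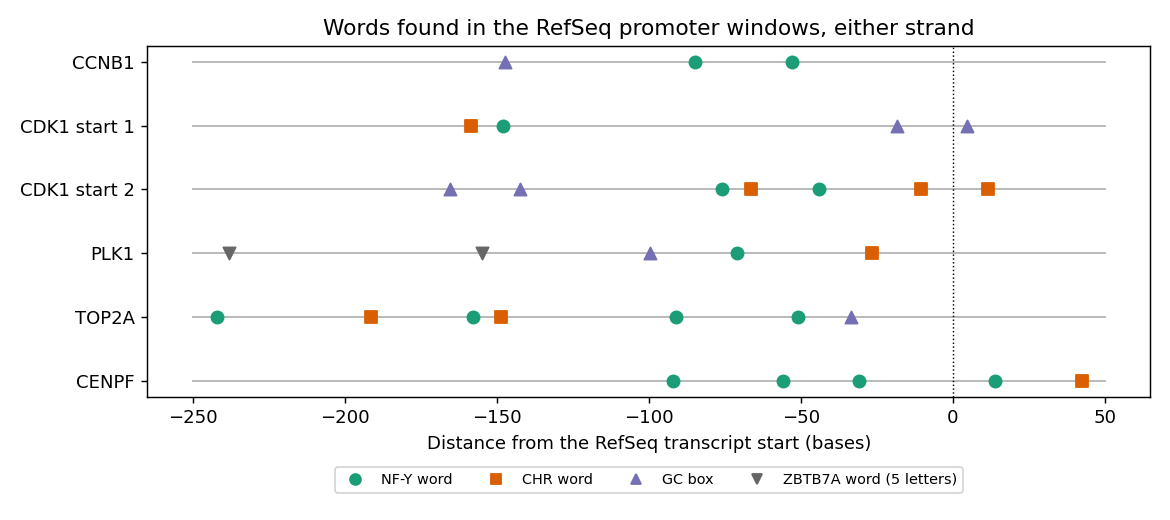
Positions of the searched words in the 6 RefSeq promoter windows of CCNB1, CDK1, PLK1, TOP2A and CENPF, in bases from the transcript start (dotted line). Each symbol is 1 match on either strand, and CCAAT lies in every window while TTTGAA is missing from that of CCNB1.

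Among all deposited peaks, only the FBS list had a ZBTB7A peak at the 5′ end of each of the 7 genes. This lead was kept at a −log10 q of at least 5, and was lost at 5-fold enrichment or at equal list length. A peak counted as lying at the 5′ end when its summit was within 2 kb of the edge of the span where transcription starts. In FBS 7 of 7 genes had such a peak. In DHT 5 of 7 did (CCNB1, CDK1, AURKA, PLK1 and FOXM1) and in CSS 4 of 7 (CCNB1, CDK1, PLK1 and FOXM1). The 5′ ends of TOP2A and CENPF had a peak in FBS and none in the other lists. Of all 4 kb windows laid end to end over the chromosomes, 4.34% held a peak summit in CSS, 3.95% in DHT and 13.9% in FBS. These windows mostly hold no gene start, and the 7 genes were not compared with other gene starts. The FBS list is 3.30 times as long as the CSS list. When each list was cut to its strongest 34120 peaks, the 5′ end was occupied at 3 genes in CSS, 5 in DHT and 5 in FBS, so FBS did not lead DHT at equal length. Among peaks of at least 5-fold enrichment, CSS occupied 3 of the 5′ ends, DHT 2 and FBS 2. This cut does not treat the lists alike. The median fold enrichment of the whole list was 5.58 in CSS and 5.70 in DHT, above the cut, and 4.56 in FBS, below it. The 5′ peak lost by the cut to equal length in CSS was that of PLK1 (rank 35692). In FBS those of PLK1 (34975) and CENPF (36273) were lost, with the weaker of 2 at each of FOXM1 (36131) and TOP2A (61954).

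**Figure D2:**
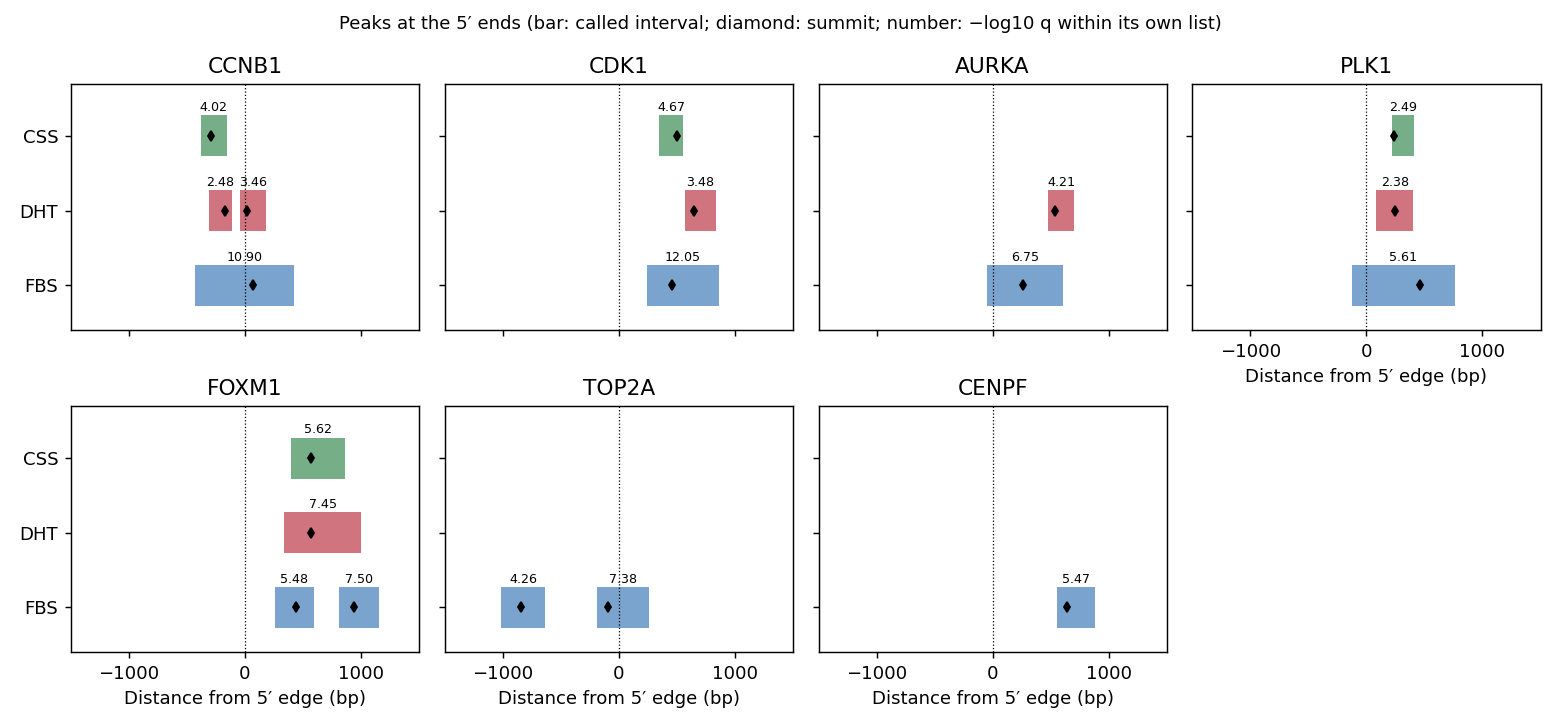
Called peaks around the 5′ edge of each gene span (0, dotted line), in bp with positive values into the gene. Bars are called intervals, diamonds are summits and numbers are −log10 q in that list, and TOP2A and CENPF have bars in FBS only.

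The cyclin and its kinase came first. At CCNB1, the CSS peak lay at chr5:68462619-68462845 (fold enrichment 5.15, −log10 q of 4.02). In DHT 2 short peaks were called, at chr5:68462688-68462885 (4.12, 2.48) and chr5:68462962-68463186 (4.81, 3.46), separated by 76 bp. In FBS a single interval of 853 bp, chr5:68462572-68463424 (5.75, 10.9), covered all of them. Fold enrichment over background and q are the authors' values and describe a peak within its own list only. By −log10 q the FBS peak ranked at percentile 96.2 of its list, where 100 is the strongest, the CSS peak at 35.1, and the DHT peaks at 4.05 and 17.3. By −log10 q the stretch was thus high in the FBS list and in the lower part of the CSS and DHT lists.

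At CDK1 the 3 lists also met at the 5′ end, but the CSS and DHT peaks did not touch. The CSS peak was chr10:62538351-62538558 (fold enrichment 5.44, −log10 q of 4.67, percentile 43.4). The DHT peak, chr10:62538572-62538836 (4.70, 3.48, percentile 18.3), began 13 bp past its end, and the summits were 141 bp apart. The FBS peak of 620 bp, chr10:62538245-62538864, spanned both. It had the highest −log10 q of all member peaks in FBS, 12.1, with a fold enrichment of 8.27 and percentile 97.2. Counting overlaps alone would score CSS and DHT as unshared here.

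The mitotic kinases differed from each other at their 5′ ends. At AURKA no CSS peak was called nearer than 33.96 kb from the 5′ edge. The DHT peak was chr20:54967297-54967524 (fold enrichment 5.24, −log10 q of 4.21, percentile 30.3) and the FBS peak chr20:54967390-54968044 (4.60, 6.75, percentile 85.4), overlapping by 135 bp. CSTF1 is the next RefSeq protein-coding gene beyond the start of AURKA. Its own start, whose place on hg19 was not determined, was not told apart from that of AURKA. At PLK1 the only peak of each list was at the 5′ end. It was chr16:23690220-23690410 in CSS (3.95, 2.49, percentile 5.02), chr16:23690085-23690402 in DHT (3.91, 2.38, percentile 3.20) and chr16:23689873-23690761 in FBS (4.69, 5.61, percentile 72.0). The CSS and DHT summits were 15 bp apart. PLK1 thus had the same place called in each condition, but near the bottom of the CSS and DHT lists. At 889 bp its FBS peak was the widest of the FBS peaks at the 5′ ends.

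FOXM1, the transcription factor of the group, had the highest-ranked 5′ peaks of the members in hormone-depleted serum. The CSS peak was chr12:2986136-2986598 (fold enrichment 6.06, −log10 q of 5.62, percentile 57.7) and the DHT peak chr12:2985997-2986665 (6.95, 7.45, percentile 74.5). The CSS interval lay within the DHT interval and their summits were 2 bp apart. In FBS 2 peaks were called 213 bp apart, chr12:2985848-2986188 (4.31, 7.50, percentile 88.0) and chr12:2986402-2986744 (3.71, 5.48, percentile 71.1). The CSS interval overlapped them by 53 and 197 bp and the DHT interval by 192 and 264 bp. The CSS and DHT summits lay inside the second FBS peak, 131 and 129 bp from its summit. RHNO1 is the next RefSeq protein-coding gene on that side and overlaps the start of FOXM1 in that annotation. For this reason these peaks cannot be given to FOXM1 alone.

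TOP2A and CENPF were the members with a 5′ peak in FBS only. This state is common in these data, since 17.2% of all FBS peaks overlapped a CSS or DHT peak. At TOP2A, FBS had peaks at chr17:38573743-38574189 (fold enrichment 4.37, −log10 q of 7.38, percentile 87.6) and chr17:38574635-38575015 (3.39, 4.26, percentile 45.4). The nearest CSS and DHT summits were at -25.7 and -25.4 kb from the 5′ edge, just outside the 25 kb limit. At CENPF the FBS peak was chr1:214776555-214776886 (4.61, 5.47, percentile 70.9), and the nearest summits of CSS and DHT were at -50.8 and -50.96 kb. Both genes therefore had a 5′ peak in full serum only as called, and whether the signal there differed between conditions was not tested.

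Within the FBS list, peaks at the 5′ ends ranked above the other peaks near the same genes, and in the CSS and DHT lists they ranked below them. The 9 FBS peaks at 5′ ends had a median percentile of 85.4 (45.4 to 97.2) by −log10 q, against 51.8 (1.82 to 97.0) for the 30 others. In CSS the 4 peaks at 5′ ends had a median of 39.3 (5.02 to 57.7) and the 8 others 61.6 (1.14 to 92.5). In DHT the 6 had a median of 17.8 (3.20 to 74.5) and the 6 others 44.9 (9.64 to 88.6). By fold enrichment the medians were 50.96 (7.50 to 98.98) against 29.4 in FBS, 42.8 against 65.2 in CSS and 20.9 against 49.0 in DHT. The order was thus the same in each list, but the FBS peaks at 5′ ends were at the middle of their list by fold and not in its upper part. The ranges by −log10 q overlapped in each list, and ranks in lists of different lengths do not show a change in binding. Without an hg19 annotation, the other peaks were not checked for starts of neighbouring genes and may include some. The 5′ peaks of FBS were also wide, at a median of 447 bp (332 to 889), against 272 bp for the other FBS peaks near the genes and 258 bp over the whole list. In CSS the order was the other way, 217.5 bp against 292.5 bp, and in DHT it was 246.5 bp against 356 bp. Over all member peaks, CSS had a median percentile of 50.5, DHT of 24.3 and FBS of 53.6.

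**Figure D3:**
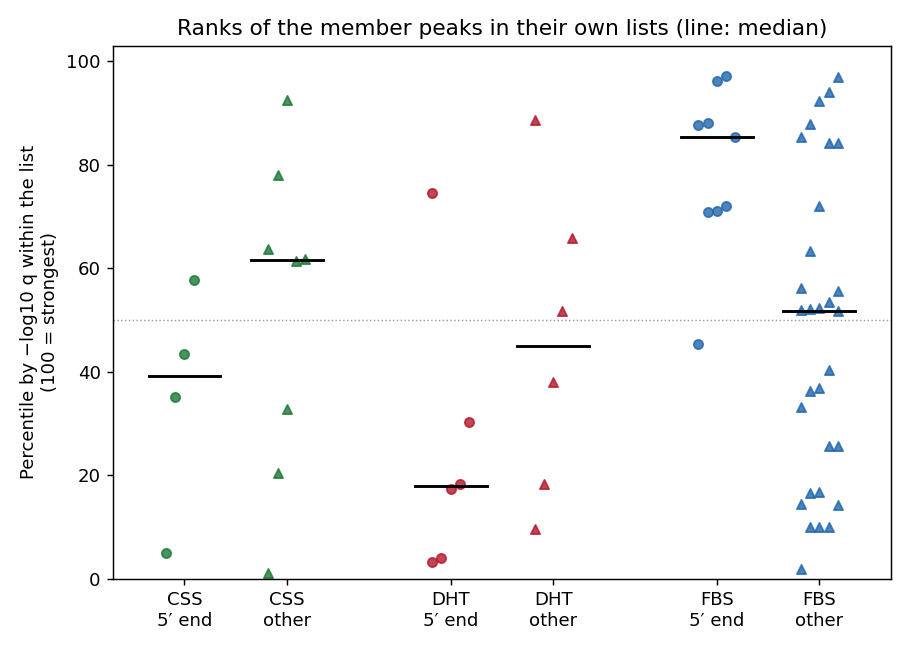
Percentile of each member peak by −log10 q within its own list (100 is the strongest), split into peaks at the 5′ end (circles) and other peaks within 25 kb (triangles). Black lines are medians, at 39.3 and 61.6 in CSS, 17.8 and 44.9 in DHT and 85.4 and 51.8 in FBS.

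Over the full windows, every gene had at least 1 peak in every list, and the numbers followed the length of the lists. There were 12 member peaks in CSS, 12 in DHT and 39 in FBS, so FBS had 3.25 times as many as CSS, against 3.30 times over the whole lists. Of all windows of the members' lengths laid end to end over the chromosomes, 49.2% held a peak in CSS, 46.5% in DHT and 73.9% in FBS. Cut to equal length, the lists gave 10, 12 and 12 member peaks. Summed over the lists, AURKA had the most peaks, with 2 in CSS, 3 in DHT and 10 in FBS, and PLK1 the fewest, with 1 in each. In CSS alone FOXM1 had the most, and in DHT CCNB1 had as many as AURKA. CCNB1 had 2, 3 and 5, CDK1 1, 1 and 6, FOXM1 3, 2 and 7, TOP2A 2, 1 and 7, and CENPF 1, 1 and 3. A −log10 q of at least 10 was reached by 1 member peak in CSS (8.33%), 1 in DHT (8.33%) and 3 in FBS (7.69%), against 14.5%, 11.8% and 4.92% of the whole lists.

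**Figure D4:**
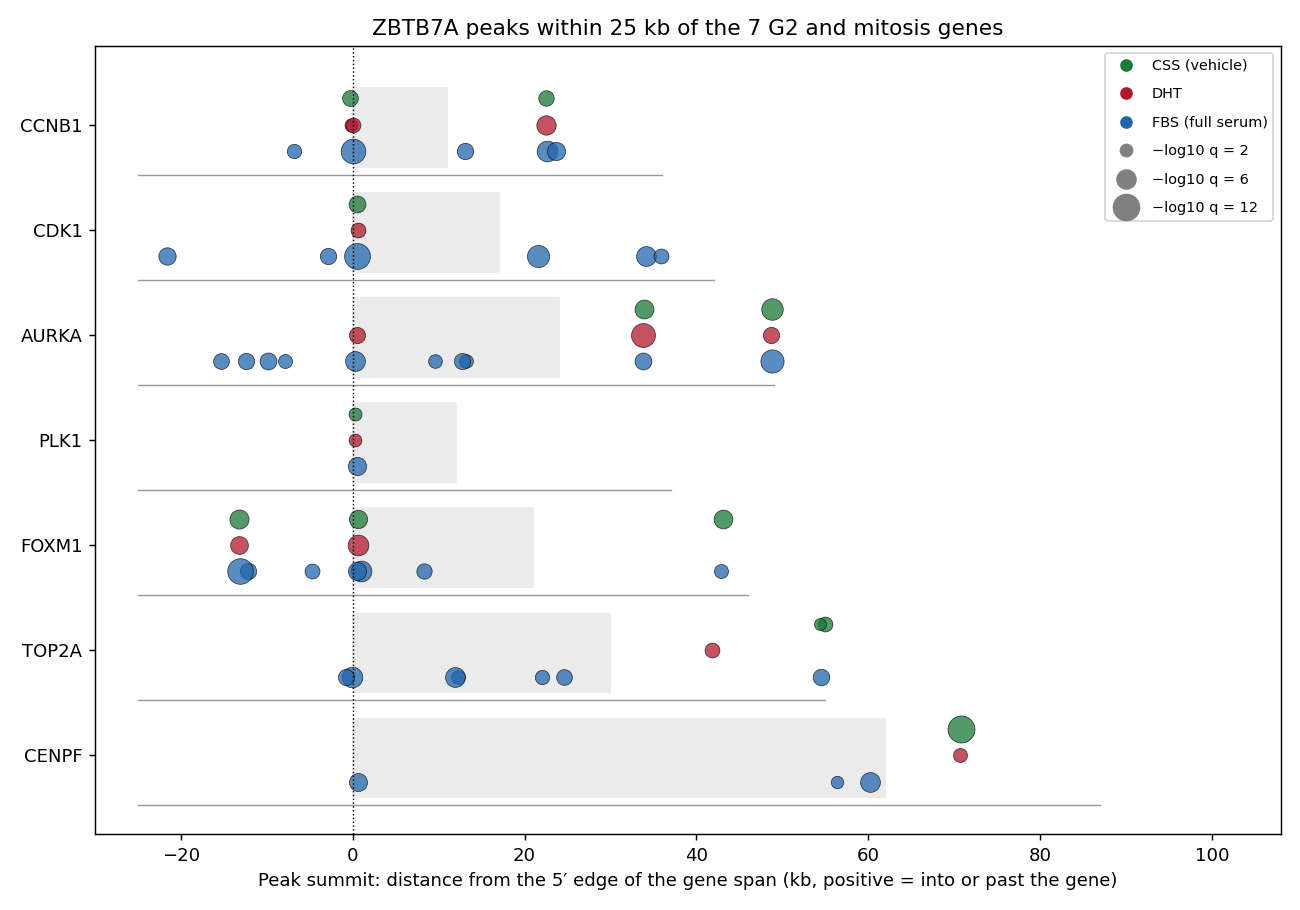
Summits of all 63 member peaks by distance in kb from the 5′ edge of each gene span (0, dotted line), 1 row per list. Grey boxes are the spans, grey lines the 25 kb windows and the area of a circle rises with −log10 q. FBS fills more places than the other lists, and CSS and DHT share the places past the ends of CCNB1, AURKA and CENPF.

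The strongest member peaks in hormone-depleted serum lay away from the 5′ ends. Past the end of CENPF, chr1:214846393-214847028 had the highest −log10 q of all CSS member peaks, 13.2, with a fold enrichment of 9.27 and percentile 92.5. Its DHT partner, chr1:214846496-214846995, was inside it but low in its list (fold enrichment 4.42, −log10 q of 2.98, percentile 9.64), and no FBS peak overlapped it. This was the widest gap in percentile between overlapping CSS and DHT peaks of the 7 genes, and without values per library it was not tested. FAM210B is the next RefSeq protein-coding gene past the end of AURKA. On that side the DHT peak chr20:54934096-54934402 had the highest −log10 q of the DHT member peaks, 10.2 (fold enrichment 8.46, percentile 88.6). The peaks overlapping it were chr20:54933886-54934317 in CSS (6.24, 6.07, percentile 61.7) and chr20:54934068-54934692 in FBS (3.74, 4.72, percentile 55.7). A further AURKA site near the limit of the window was called in each list, with the CSS and FBS summits at the same base: chr20:54919039-54919326 in CSS (7.54, 8.13, percentile 77.99), chr20:54919115-54919334 in DHT (5.32, 4.34, percentile 38.0) and chr20:54918911-54919419 in FBS (5.77, 9.55, percentile 94.2). It had the highest −log10 q of the AURKA peaks in CSS and in FBS. Starts of neighbouring genes were not placed on hg19, so the CENPF and AURKA peaks named here could belong to a neighbour.

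CCNB1 and FOXM1 each had a further site called in each list. At CCNB1 it lay past the gene, on the side where CENPH is the next RefSeq protein-coding gene. The peaks were chr5:68485467-68485741 in CSS (fold enrichment 4.996, −log10 q of 3.80, percentile 32.8), chr5:68485450-68485667 in DHT (6.64, 6.42, percentile 65.9) and chr5:68485071-68485822 in FBS (4.81, 7.44, percentile 87.8). In DHT this was the strongest CCNB1 peak. At FOXM1 it lay on the side of RHNO1 and TULP3. The peaks were chr12:3000050-3000314 in CSS (6.37, 6.27, percentile 63.8), chr12:2999883-3000518 in DHT (5.91, 5.30, percentile 51.8) and chr12:2999557-3000652 in FBS (5.26, 11.8, percentile 97.0). The FBS interval, at 1096 bp, was the widest of all member peaks. These sites could belong to a neighbour, and without an hg19 annotation they were not assigned to a gene.

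After merging overlapping peaks the 7 genes held 41 regions. A peak in FBS alone was found in 27 of them (65.9%), against 68.4% of all 151256 merged regions of the lists, so this share was near that of the series. A peak in each list was found in 8 (19.5%), against 7.67% of all regions. Any overlap of 1 bp joined peaks, so the CDK1 5′ region is among the 8 although its CSS and DHT peaks meet only through the FBS peak. Shares with a stricter rule for merging were not computed. A peak in CSS alone was found in 1 (7.57% of all regions) and in DHT alone in 1 (5.1% of all regions). The other 4 had a peak in some pair of lists. The 8 regions at 5′ ends comprised 4 with all lists, 1 with DHT and FBS (AURKA) and 3 with FBS alone (2 at TOP2A, 1 at CENPF). Of the 33 regions elsewhere, 4 had all lists and 24 had FBS alone. Among the latter, the CDK1 region past the gene at chr10:62559387-62559711 had the highest rank (fold enrichment 6.98, −log10 q of 8.61, percentile 92.4). Inside the TOP2A span, chr17:38561977-38562345 reached percentile 85.5 (5.47, 6.75), and inside the CENPF span, chr1:214836093-214836340 reached 84.2 (6.10, 6.74). AURKA had 3 FBS peaks inside its span, at percentiles 9.98, 40.3 and 9.98, and 4 upstream, at 14.5 to 56.2. In the TOP2A span the other 3 FBS peaks lay at 9.98 to 36.3, and in the CENPF span the other 1 at 1.82. CCNB1 had 3 regions in FBS alone, at 16.6, 52.1 and 72.0. CDK1 had 4 more, at 25.7 to 84.2, and FOXM1 had 3, at 25.7 to 52.4. At the far side of FOXM1, chr12:2943716-2944012 in CSS (6.34, 5.996, percentile 61.4) and chr12:2943989-2944377 in FBS (3.38, 3.01, percentile 14.3) overlapped by 24 bp and had no DHT partner. Past the end of TOP2A, chr17:38519494-38519684 in CSS (3.66, 2.01, percentile 1.14) overlapped chr17:38519337-38519604 in FBS (3.36, 4.52, percentile 53.6) by 111 bp. TOP2A had the only region called in CSS alone, chr17:38518893-38519228 (4.54, 3.48, percentile 20.4), and the only one called in DHT alone, chr17:38531984-38532388 (4.70, 3.48, percentile 18.3). At the 25 kb limit, the first of these lay just inside at 24.96 kb from the span, and a DHT peak at chr17:38599310-38599521 lay just outside at 25.4 kb (5.53, 4.97).

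Partners between lists were counted by an overlap of at least 1 bp, with exact Clopper-Pearson 95% intervals that cover counting error only. Peaks of 1 gene are neighbours and not independent. Of the CSS member peaks 8 of 12 (66.7%, 34.9 to 90.1%) had a DHT partner, against 56.8% of the whole CSS list. Of the DHT member peaks 8 of 12 (66.7%, 34.9 to 90.1%) had a CSS partner, against 63.9% of the whole list. An FBS partner was present for 10 of 12 in CSS (83.3%, 51.6 to 97.9%) and 10 of 12 in DHT (83.3%, 51.6 to 97.9%), against 44.1% and 48.2% of the whole lists. Each of the 4 CSS and 6 DHT peaks at 5′ ends had an FBS partner. The excess over the whole lists depended on what counted as shared. With summits within 100 bp, 3 of 12 CSS and 3 of 12 DHT member peaks (25% each) kept an FBS partner, against 19.7% and 22.3% of the whole lists. When each peak had to cover at least 50% of the other, 1 of 12 did in each list (8.33%), against 20.9% and 23.2%. In the other direction 12 of 39 FBS member peaks (30.8%, 17.0 to 47.6%) had a CSS or DHT partner, against 17.2% of the FBS list. With summits within 100 bp 5 of 39 did (12.8%), against 9.36% of the list. With 50% of both peaks covered 2 of 39 did (5.13%), against 9.40%.

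The surroundings of the genes differed in peak density. In 1 Mb centred on each gene, FBS had between 29 peaks (PLK1) and 96 (CCNB1), with a median of 36 over all 3086 windows of 1 Mb. CSS had between 7 (CDK1) and 32 (TOP2A), with a median of 10 over all windows, and DHT between 4 (CDK1) and 25 (TOP2A), with a median of 9. PLK1, with 1 FBS peak in its window, thus lay in the sparsest FBS surroundings of the 7 genes. TOP2A had the densest surroundings in CSS and DHT and yet no peak of either list at its 5′ end or inside its span. CDK1 had the sparsest in both and a 5′ peak in each. The part of this density in the counts near the genes was not tested.

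**Figure D5:**
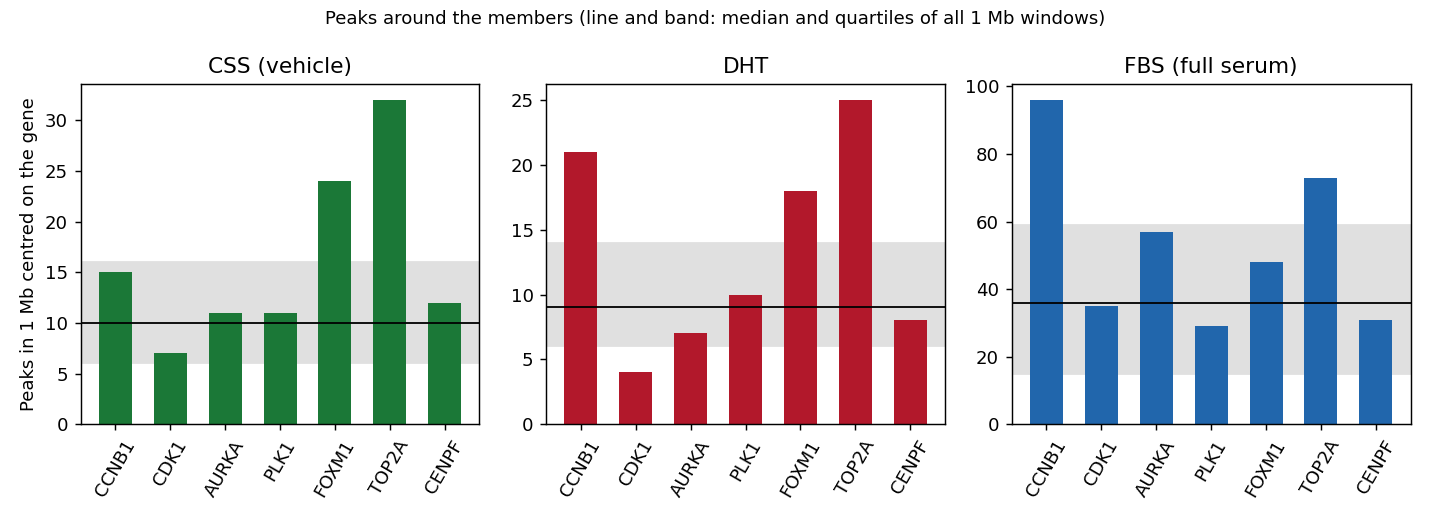
Number of peak summits in 1 Mb centred on each gene, with 1 panel per list and its own axis. The black line and grey band are the median and the quartiles of all 1 Mb windows, and CCNB1 has the tallest bar in FBS (96) and TOP2A in CSS (32) and DHT (25).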

How the data were processed

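ZBTB7A ChIP-seq peaks from 5 VCaP libraries were deposited as 3 lists, 1 per culture condition (CSS, DHT, FBS). Per the submitters' processing notes, MACS2 (2.0.10.20131216) was used together with BWA (0.7.2-r351) and SAMtools (0.1.18) on hg19. How libraries were combined, which control was used and the q threshold were not given in the sources used. The fold enrichment is a ratio deposited by the authors. The −log10 q was deposited by the authors too, and so was a score, which was not used. CSS peaks had a −log10 q of at least 1.33, and DHT and FBS peaks of at least 1.31. Library depth is unknown, so a longer list can come from more reads.

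Peaks were assigned by summit, with a first base of 1 in printed coordinates. Ranks were computed from −log10 q within a list. Background windows ran end to end over chromosomes 1 to 22, X and Y up to the last peak, gaps included. Gene strand came from the RefSeq promoter table, and for AURKA and FOXM1 (both reverse) from general knowledge. Neighbouring genes were the next protein-coding genes in RefSeq on GRCh38.p14, and no coordinates were converted. All 7 genes were named, with full values for the strongest peak per list and each 5′ peak. Peaks shared by lists, and a few others at a limit or of high rank, were named after their values were seen. The members, word lists and alternatives were chosen with earlier results of these data known. Partner counts were tested on simulated data and equalled bedtools 2.31.1 in 6 of 6 pairs of lists. Software was scipy 1.17.1, pandas 2.3.3, numpy 2.4.6 and matplotlib 3.10.9 under Python 3.11.15.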

Additional observations from a re-analysis of the deposited data

How the results depend on the processing

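Each alternative changed 1 choice, and 58 values stayed within 1.5 times the reported count or within its interval while 38 moved. In the order CSS, DHT and FBS, member peaks numbered 6, 4 and 17 at a −log10 q of at least 5, and 1, 1 and 3 at 10. A fold enrichment of at least 5 left 6 in DHT and 9 in FBS, lists of equal length left 12 in FBS, a limit of 10 kb left 6 in CSS, and a limit of 50 kb gave 20 in CSS and 60 in FBS. Genes with a peak fell to 3 in CSS and 3 in DHT at a −log10 q of at least 5, with 7 kept in FBS. They fell to 1, 1 and 3 at 10, and to 3 in DHT at a fold enrichment of at least 5. Genes with a 5′ peak fell to 1 in CSS and 1 in DHT at a −log10 q of at least 5, and stayed at 7 in FBS. They fell to 0, 0 and 2 at 10. At a fold enrichment of at least 5 they were 3 in CSS, 2 in DHT and 2 in FBS. With an overlap of 50% of both peaks, 8.33% of CSS, 8.33% of DHT and 5.13% of FBS member peaks kept a partner in the lists of the other serum, and with summits within 100 bp 25%, 25% and 12.8% did. The CSS share with an FBS partner was 50% (3 of 6) at a −log10 q of at least 5. The FBS share with a CSS or DHT partner was 58.3% (7 of 12) with lists of equal length. Shares over the whole lists were not computed at these settings, so neither value can be read as an excess at these genes. From 100 bases before the start, TTTGAA was in 3 promoter windows, either CHR word in 3, CCAAT with a CHR word in 3, GGGCGG in 2 and GACCC in 0. Thresholds, equal lengths, narrower limits and stricter matches keep fewer peaks, partners or bases to count by construction, and the 50 kb limit keeps more peaks. The cause of the higher FBS share with lists of equal length was not tested. No paired analysis was possible because each condition has a single list, although CSS and DHT libraries carry the same numbers, and no library could be left out for the same reason. Depth per library is unknown, so no limit of detection can be given.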
